A study of Rattus norvegicus with 4 samples.

Results

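The translation initiation and elongation factors are the soluble proteins that load ribosomes onto messenger RNA and carry them along it. They were taken from the deposited gene table by symbol: every gene starting with Eif followed by a digit from 1 to 6, or with Eef followed by 1 or 2, without the kinases that share these prefixes. The pattern matched 61 symbols, 5 kinases were left out, and 56 of 14137 genes remained. The cells were neonatal rat ventricular cardiomyocytes (NRVMs), a primary culture from the newborn rat heart that always carries some other heart cells. The control group (labelled WT, 2 libraries) received a lentivirus with a control short hairpin RNA, and the Crat hairpin group (labelled KO, called a knockdown in the design text, 2 libraries) received a lentivirus with a hairpin against Crat. Both groups were harvested at day 5 after infection. Rat strain, sex and the number of litters or infections behind each library are not given in the sources used here, and neither is the number of hairpins. Crat encodes carnitine acetyltransferase, a mitochondrial enzyme that passes acetyl groups between coenzyme A and carnitine, and the study's title concerns dilated cardiomyopathy. The only comparison is Crat hairpin against control, and here it asks how the messages for the translation factors differ after Crat depletion.

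Initiation starts when eIF2, carrying the initiator transfer RNA, joins eIF1, eIF1A, eIF3 and eIF5 on the small ribosomal subunit. The eIF4F complex (the cap-binding protein eIF4E, the scaffold eIF4G and the helicase eIF4A) brings that assembly to the capped end of a messenger RNA, and the eIF4E-binding proteins block it when the mTORC1 kinase is inactive. In elongation, eEF1A delivers each aminoacyl transfer RNA, the eEF1B subunits (encoded by Eef1b2, Eef1d and Eef1g) reload eEF1A with GTP, and eEF2 moves the ribosome on by a codon. Many elongation factor messages begin with a tract of pyrimidines, the TOP motif, through which mTORC1 and the RNA-binding protein Larp1 control their translation. Heart muscle cells change their rate of protein synthesis with load, and growth of the heart muscle is known to depend on this machinery.

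The sequence around the annotated transcription start is shown for the 5 factors whose messages were lower in Crat hairpin libraries, because the TOP motif lies there. Each window holds 30 bases, 10 before the start and 20 from it, read 5′ to 3′ on the strand of the gene from the RefSeq annotation of the rat build GRCr8. Capitals mark a pyrimidine tract, searched as a C followed by at least 4 further C or T letters that begins within 10 bases of the start. The windows lie at chr8:88225050-88225079 on the minus strand (Eef1a1), chr9:72074081-72074110 on the plus strand (Eef1b2), chr1:215289805-215289834 on the plus strand (Eef1g), chr1:269919006-269919035 on the minus strand (Eif3a) and chr10:55143202-55143231 on the minus strand (Eif5a).
Eef1a1: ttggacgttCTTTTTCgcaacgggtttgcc
Eef1b2: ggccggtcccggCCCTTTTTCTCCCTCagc
Eef1g: ctgcggaatcaccatggcggctggggtaag
Eif3a: atccggggctcgggcggcggcgctgccgcc
Eif5a: tagaggcggcggcggcggcggcagcagcac
A tract was found in Eef1a1, where it is 7 bases long and begins 1 base before the annotated start, and in Eef1b2, where it is 15 bases long. No tract was found in these windows of Eef1g, Eif3a and Eif5a. That does not show that these messages lack a tract, because the start used in these cells may lie outside the window. Of the 56 factors 51 had a RefSeq start window, and 18 of them (35.3%) held a tract, with a single window taken per factor. Over all RefSeq start windows the count was 9660 of 33469 (28.9%). That set was not cut to a single window per gene or to the genes tested here, so the shares are not like for like. A tract was found in 2 of the 5 factors that fell and in 2 of the 4 that rose (Eif4g1 and Eif4h). A match is a description of the letters and not a start site measured in these cells.

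Depth was very uneven. The libraries held 23680064 and 1321735 reads in control replicates 1 and 2 and 321516 and 1622998 in Crat hairpin replicates 1 and 2. Values are RPM, reads scaled by the library total and not divided by gene length, so levels are compared between libraries and not between genes. A single read was worth 3.11 RPM in Crat hairpin replicate 1, where 18 of the 56 factors had fewer than 20 reads, and 0.0422 RPM in control replicate 1. Crat itself stood at 148 and 156 RPM in control libraries and at 24.9 and 19.7 RPM in Crat hairpin libraries, and fell by 2.72 ± 0.19 (SE) on the log2 scale (limma, Benjamini-Hochberg adjusted p = 7.3e-06). Reads from the mitochondrially encoded genes made up 9.47% and 9.08% of the control libraries and 3.64% and 3.62% of the Crat hairpin libraries, which moves the RPM scale of every other gene. The median gene lay at a log2 change of 0.15 on the RPM scale, and median-of-ratios scaling, which sets libraries by their median gene and not by their read total, moved that median by -0.18. Calls under that scaling are therefore given beside those on the RPM scale.

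Most factor messages differed little between the groups, and those that did went both ways. All 56 factors had a mean of at least 1 RPM and were tested. At an adjusted p under 0.05 (limma on log2(RPM + 1), Benjamini-Hochberg over all genes) 4 rose, namely Eif4ebp3, Eif4g1, Eif4h and Eif5, and 5 fell, namely Eef1b2, Eif5a, Eef1g, Eif3a and Eef1a1. These are 7.14% and 8.93% of the factors, against 12.6% of all 12949 genes tested called higher and 6.36% called lower. The median log2 change of the factors was -0.00 and that of all genes tested 0.15, and 40 of the 56 factors lay under the latter. With median-of-ratios scaling 3 factors were called higher and 11 lower, against 8.04% and 9.66% of all genes. With edgeR's quasi-likelihood test on the recovered reads 5 were called higher and 18 lower, against 13.7% and 15.9% of all genes. The share of calls that were higher thus went from 44.4% of the factors on the RPM scale to 21.4% and 21.7% under these settings, and from 66.5% to 45.4% and 46.2% over all genes. Without the variance trend limma called 0 of the 56 factors, against 2.05% of all genes called higher and 0.61% called lower. In the fit with the trend 19 factors had an unadjusted p under 0.05. The share of all genes under that limit was not counted, so no excess can be read from it. Leaving out each library in turn kept the direction of all 9 called factors, but the number passing shifted, as it did over all genes. The groups did not overlap for 17 factors that were higher and 15 that were lower, against 39.1% and 21.7% of all genes.

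**Figure D1:**
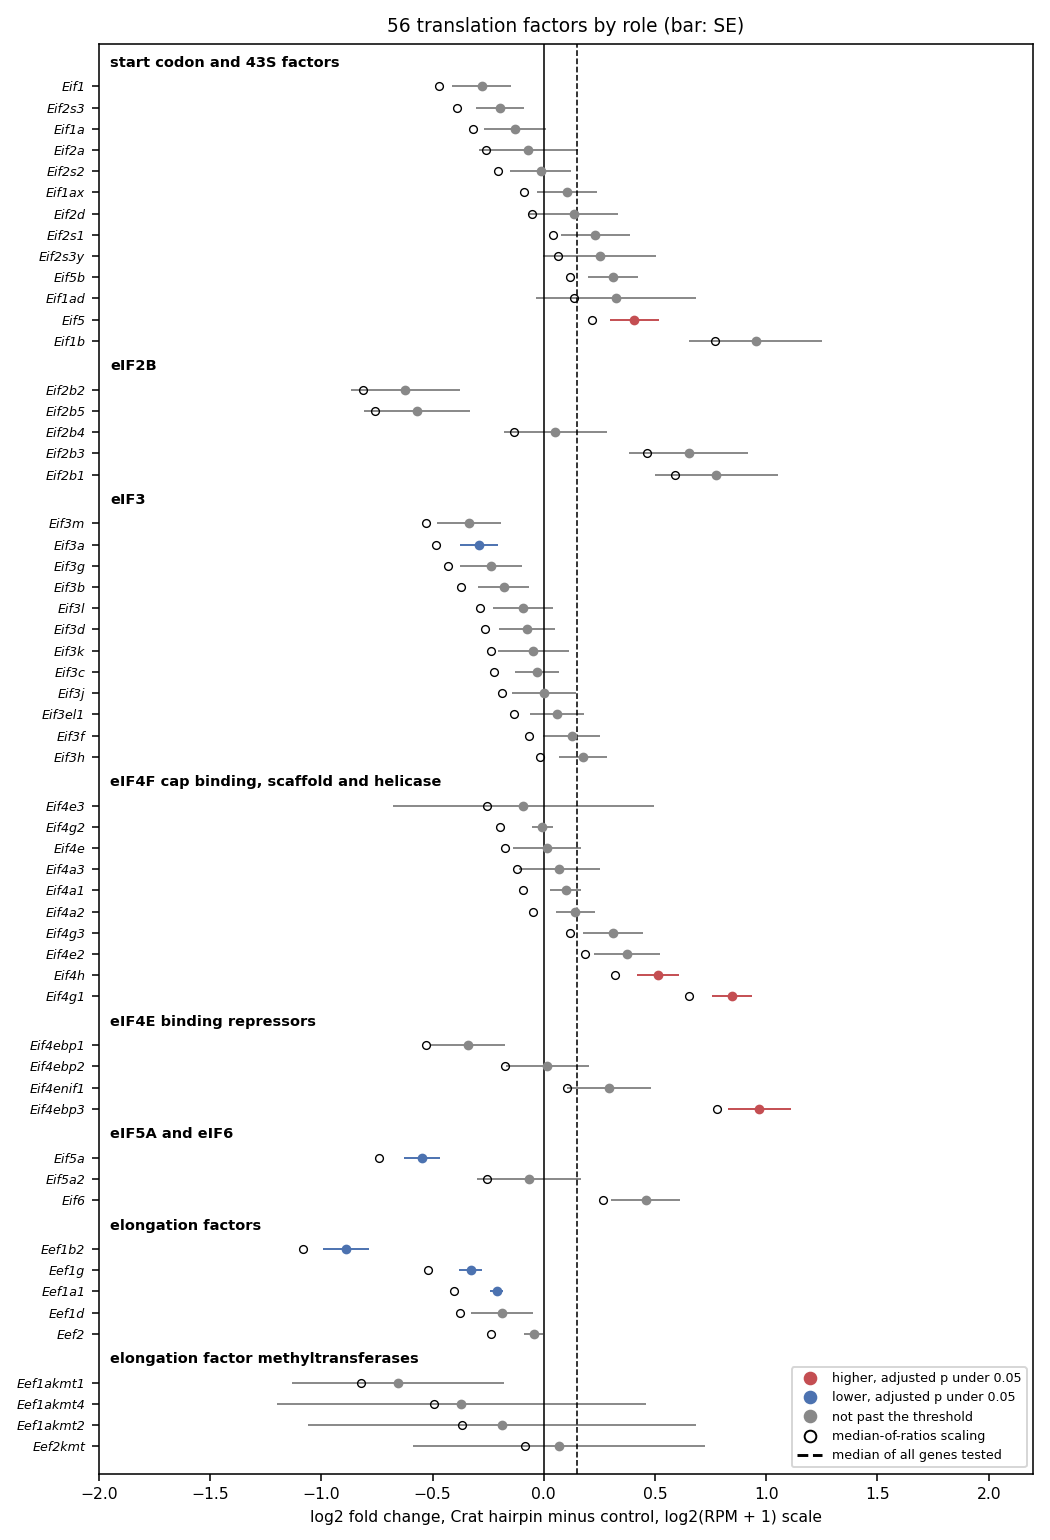
Log2 change (Crat hairpin minus control, limma on log2(RPM + 1), filled points with SE bars) of the 56 factors grouped by role, with red for higher, blue for lower and grey for not past the threshold; hollow points are the same changes after median-of-ratios scaling and the dashed line is the median of all genes tested, 0.15. The 9 called factors lie between -0.89 (Eef1b2) and 0.97 (Eif4ebp3), and 35 of the 56 factors lie within 0.3 of no change.

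On the RPM scale the elongation factors were the role with the most lower calls: 3 of the 5 in the table fell and none rose. Over all genes 6.36% were called lower and 12.6% higher. The median log2 change of the 5 was -0.21, against 0.15 for all genes. The 3 that fell all belong to eEF1, the complex that delivers aminoacyl transfer RNA, while eEF2, the translocase, did not pass on the RPM scale. Eef1a2 and Eef1e1 were not analysed here. Eef1a1, which encodes the GTPase that carries the transfer RNA, stood at 7378 and 7472 RPM in control libraries and at 6382 and 6437 RPM in Crat hairpin libraries. Both Crat hairpin libraries were below both control libraries, by little compared with other called factors, and the gap was far wider than the spread within either group. The log2 change was -0.21 ± 0.03 (SE; limma adjusted p = 0.000734) and -0.41 under median-of-ratios scaling. Its annotated start window holds the tract shown above, and RefSeq lists 20 pseudogenes of it, so the assignment of its reads is uncertain.

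Eef1b2 encodes the subunit that reloads eEF1A with GTP, and it fell most among the factors. It stood at 297 and 299.6 RPM in control libraries and at 152 and 169 RPM in Crat hairpin libraries, a ratio of 0.539. The highest Crat hairpin value was well below the lowest control value, although the shallowest library rests on 49 reads. The log2 change was -0.89 ± 0.10 (SE; limma adjusted p = 0.000270). Eef1g encodes a structural subunit of eEF1B. Its 2 control libraries held 1237 and 1255 RPM and both Crat hairpin libraries 992 RPM, so the groups were apart and the Crat hairpin libraries nearly equal. Its log2 change was -0.33 ± 0.05 (SE; limma adjusted p = 0.00205), and without control replicate 1 the adjusted p was 0.0763. RefSeq lists 16 pseudogenes of Eef1g and 3 of Eef1b2.

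Eef1d, which encodes the other exchange subunit, held 152 and 158 RPM in control libraries and 121 and 153 RPM in Crat hairpin libraries. The groups overlapped, and the log2 change of -0.19 ± 0.14 (SE) did not pass (limma adjusted p = 0.395). Eef2, which encodes the translocase, held 2750.4 and 2802 RPM in control libraries and 2765 and 2614 RPM in Crat hairpin libraries, and these groups overlapped too. Its log2 change was -0.05 ± 0.04 (SE; limma adjusted p = 0.510). Under median-of-ratios scaling it was -0.24 and passed as lower (limma adjusted p = 0.00387, with a range from 5.5e-13 to 0.932 over 17 alternatives), so the call on Eef2 turns on the scaling.

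The balance between eEF1 subunits was compared as log2 ratios of RPM + 1. The ratio of Eef1b2 to Eef1a1 was -4.63 and -4.64 on the log2 scale in control libraries and -5.38 and -5.24 in Crat hairpin libraries, a difference of -0.68. The ratio of Eef1g to Eef1a1 differed by -0.12, with both Crat hairpin libraries (-2.68 and -2.70) below both control libraries (-2.58 and -2.57). The ratio of Eef1d to Eef1a1 differed by 0.03 and the groups overlapped. Plain RPM ratios, which do not depend on how libraries are scaled, gave differences of -0.68, -0.12 and 0.02. An exact permutation test of 2 against 2 libraries cannot go below p = 0.333 (two-sided), which the first 2 ratios reached. These 3 ratios were chosen after the values had been seen. Summed over the 5 elongation factors, the level was 11815 and 11986.5 RPM in control libraries and 10413 and 10365 RPM in Crat hairpin libraries, a difference of -12.7% (exact permutation p = 0.333). Both scalings that move the median gene made this sum lower still, at -23.6% and -24.3%.

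**Figure D2:**
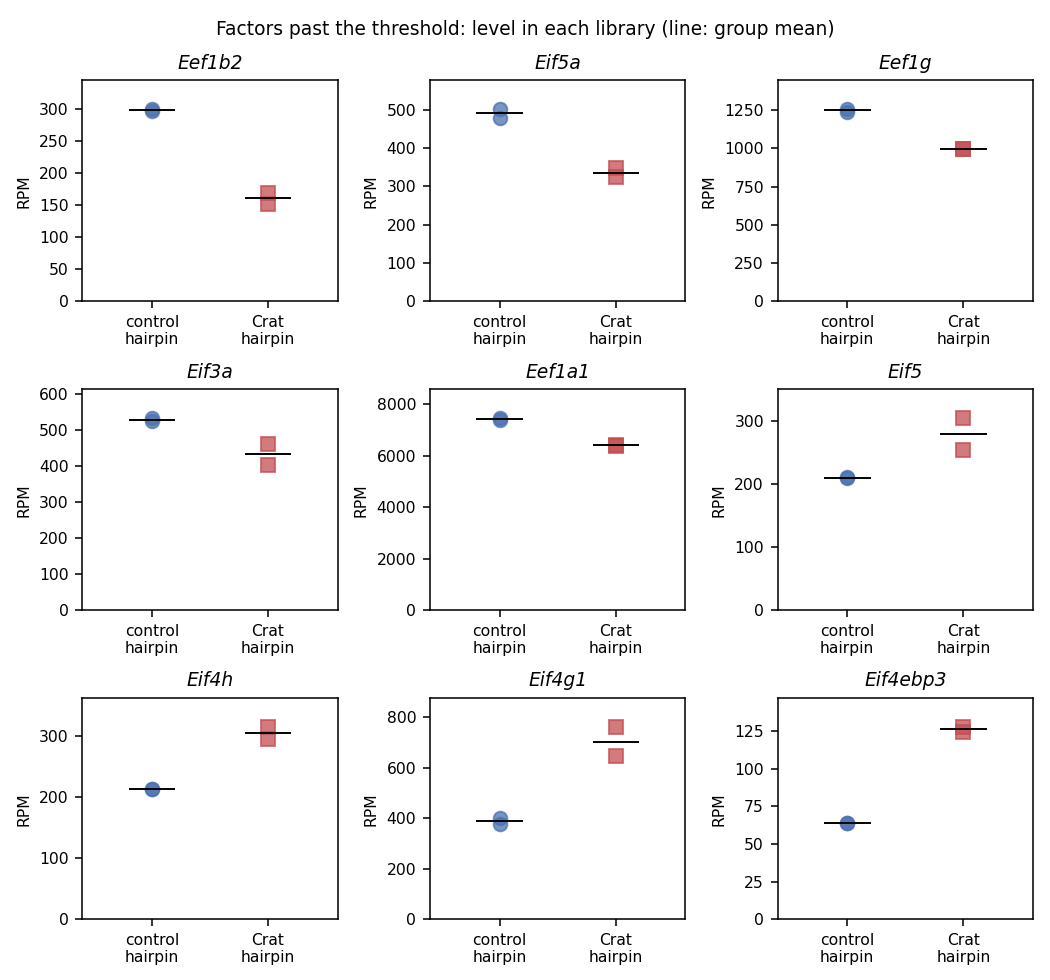
Level in RPM of the 9 called factors in each of the 4 libraries, on axes that start at 0, with the group mean as a line. Control and Crat hairpin libraries do not overlap in any panel. The factors were picked by the test on these same values, so this adds no support to the calls. Over all genes tested 39.1% lie higher and 21.7% lower without overlap. Eef1b2 goes from about 298 to 161 RPM in the group means and Eif4g1 from 390.0 to 704 RPM.

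Within eIF4F and its helper proteins 2 of 10 genes rose and none fell, against 12.6% and 6.36% of all genes. The median log2 change of the 10 was 0.12, against 0.15 for all genes. With median-of-ratios scaling 2 were called higher and 1 lower, against 8.04% and 9.66% of all genes. The median under that scaling was -0.07, against -0.03 for all genes. Eif4g1, which encodes the main scaffold that joins eIF4E, eIF4A, eIF3 and the poly(A)-binding protein, stood at 378 and 402 RPM in control libraries and at 762 and 646 RPM in Crat hairpin libraries. The lower Crat hairpin value was well above the higher control value. The ratio of the group means was 1.81 and the log2 change 0.85 ± 0.09 (SE; limma adjusted p = 0.000158), and it passed as higher in every alternative but the fit with no variance trend (adjusted p = 0.105), over 17 alternatives with log2 changes from 0.61 to 0.97. Eif4h encodes a cofactor that stimulates the eIF4A helicase. It held 213 RPM in both control libraries and 314 and 294.5 RPM in Crat hairpin libraries, so the groups were apart. Its log2 change was 0.51 ± 0.09 (SE; limma adjusted p = 0.00429). The call was lost under TMM scaling (adjusted p = 0.0567), with DESeq2 (0.190), with no variance trend (0.159) and without control replicate 1 (0.133).

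The relatives of Eif4g1 did not pass the test on the RPM scale. Eif4g2 (also called DAP5), a truncated scaffold that does not bind eIF4E, held 1508 and 1471 RPM in control libraries and 1480.5 and 1485 RPM in Crat hairpin libraries. Its groups overlapped, and the log2 change was -0.01 ± 0.05 (SE; limma adjusted p = 0.946). Under median-of-ratios scaling it was -0.20 and passed as lower (limma adjusted p = 0.0201, with a range from 8.7e-07 to 0.985 over 17 alternatives). Eif4g3, the closest relative of Eif4g1, held 138 and 173 RPM in control libraries and 199 and 184 RPM in Crat hairpin libraries. Those groups did not overlap, but the log2 change of 0.31 did not pass (limma adjusted p = 0.142). The log2 ratio of Eif4g2 to Eif4g1 was 1.99 and 1.87 in control libraries and 0.96 and 1.20 in Crat hairpin libraries, and that of Eif4g3 to Eif4g1 was -1.45 and -1.21 against -1.93 and -1.81. Both ratios were lower in both Crat hairpin libraries.

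The start window of Eif4g1 is shown in part because the CACGTG motif, the E-box bound by Myc and related factors, lies in it. The stretch is at chr11:93746404-93746433 on the minus strand of GRCr8, and the capitals mark the motif, which begins 54 bases before the annotated start. A second copy, not shown, begins at base 16 of the transcript. The motif reads the same on both strands.
Eif4g1: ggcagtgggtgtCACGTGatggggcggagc
In windows of 300 bases around the start, CACGTG was found in 11 of 51 factors (21.6%), with a single window taken per factor. Over all RefSeq start windows it was found in 2148 of 33469 (6.42%). That set was not cut to a single window per gene or to the genes tested here, so the shares are not like for like. Of the called factors it was found in 2 of 4 that rose and in 2 of 5 that fell. Binding of any protein at these letters was not measured.

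The cap-binding and helicase genes of eIF4F did not pass the test. Eif4e, which encodes the cap-binding protein, held 83.1 and 90.0 RPM in control libraries and 93.3 and 81.9 RPM in Crat hairpin libraries, a log2 change of 0.02 with overlapping groups. Eif4e2, a cap-binding relative that acts as a repressor, held 86.7 and 81.0 RPM against 118 and 100.4 RPM (log2 change 0.38, limma adjusted p = 0.117). Eif4e3 rests on a single read in Crat hairpin replicate 1. The helicase genes Eif4a1 and Eif4a2 had log2 changes of 0.10 and 0.14 (limma adjusted p = 0.376 and 0.305), and both went below 0 under median-of-ratios scaling (-0.09 and -0.05). Eif4b was not analysed here.

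Among the 4 genes for proteins that bind eIF4E and hold it back, 1 rose and none fell, against 12.6% and 6.36% of all genes. Eif4ebp3 encodes an eIF4E-binding protein related to the mTORC1 target Eif4ebp1. It held 64.1 and 63.6 RPM in control libraries and 128 and 124 RPM in Crat hairpin libraries, a ratio of 1.97, and replicates of each group lay close together. Its log2 change of 0.97 ± 0.14 (SE; limma adjusted p = 0.00112) was the largest among the called factors on the RPM scale. Under median-of-ratios scaling it was 0.78, against -1.08 for Eef1b2. Without control replicate 1 the adjusted p was 0.0723, and with no variance trend 0.0732. The deposited identifier of Eif4ebp3 also stands under the symbol Ankhd1, its neighbour with which it can form a joint transcript, so the 2 cannot be told apart here. The other family members did not pass. Eif4ebp1 held 75.2 and 69.6 RPM against 59.1 and 54.8 RPM (log2 change -0.34, limma adjusted p = 0.202). Eif4ebp2 had a log2 change of 0.02 with overlapping groups.

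Of 13 genes for start codon selection and for assembly on the small subunit, 1 rose and none fell, against 12.6% and 6.36% of all genes. The median log2 change of the 13 was 0.13, against 0.15 for all genes. With median-of-ratios scaling none was called higher and 2 lower, against 8.04% and 9.66% of all genes. The median under that scaling was -0.05, against -0.03 for all genes. Eif5, which encodes the protein that triggers GTP hydrolysis by eIF2 at the start codon, held 209 and 211 RPM in control libraries and 255 and 305 RPM in Crat hairpin libraries. The groups were apart and the Crat hairpin libraries spread more than the control libraries. The log2 change was 0.41 ± 0.11 (SE; limma adjusted p = 0.0300). Under median-of-ratios scaling it was 0.21 and did not pass (limma adjusted p = 0.234, with a range from 0.000566 to 0.366 over 17 alternatives). Without control replicates 1 and 2 in turn the adjusted p was 0.319 and 0.141. RefSeq lists 11 pseudogenes of Eif5.

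Eif1 and Eif1b encode near-identical proteins that keep the scanning ribosome from stopping at wrong codons, and their values lay on opposite sides of the control. Eif1 held 261 RPM in both control libraries and 187 and 248 RPM in Crat hairpin libraries, and Eif1b held 13.8 and 12.1 RPM against 24.9 and 27.1 RPM. Neither pair of groups overlapped. Neither passed on the RPM scale: the log2 changes were -0.28 (limma adjusted p = 0.187) for Eif1 and 0.95 ± 0.30 (SE; limma adjusted p = 0.0532) for Eif1b, which rests on 8 reads in the shallowest library and was the factor nearest to the threshold. Under median-of-ratios scaling Eif1 had -0.47 and passed as lower (limma adjusted p = 0.0370, with a range from 0.000949 to 0.606 over 17 alternatives). The log2 ratio of Eif1b to Eif1 was -4.14 and -4.32 in control libraries and -2.86 and -3.15 in Crat hairpin libraries, the widest difference of the 8 ratios between related genes, 1.23. The subunits of eIF2 itself, Eif2s1, Eif2s2 and Eif2s3, had log2 changes of 0.23, -0.01 and -0.20, and none passed on the RPM scale. Under median-of-ratios scaling Eif2s3 had -0.39 and passed as lower (limma adjusted p = 0.0354, with a range from 3.1e-05 to 0.788 over 17 alternatives). Eif5b, which joins the large subunit, held 149.8 and 138 RPM against 180.4 and 177 RPM (log2 change 0.31, limma adjusted p = 0.0899).

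The genes of eIF2B, the exchange factor that reloads eIF2 with GTP and is blocked when eIF2 is phosphorylated, did not share a direction. None of the 5 passed with limma on the RPM scale. An unadjusted p under 0.05 was found for 4, a limit not counted over all genes. With edgeR 2 were called lower (Eif2b2 and Eif2b5), against 15.9% of all genes. Eif2b2 held 46.9 and 47.7 RPM in control libraries and 24.9 and 37.0 RPM in Crat hairpin libraries, and Eif2b5, the catalytic subunit, 65.2 and 77.2 RPM against 37.3 and 60.4 RPM. Both lay lower without overlap (log2 changes -0.62 and -0.57, limma adjusted p = 0.113 and 0.136). Under median-of-ratios scaling the log2 change of Eif2b2 was -0.81 and passed as lower (limma adjusted p = 0.0487, with a range from 0.00188 to 0.554 over 17 alternatives). Eif2b1 and Eif2b3 lay higher without overlap, with log2 changes of 0.78 and 0.65 (limma adjusted p = 0.0837 and 0.126), and Eif2b4 had 0.05. These genes rest on 8 to 18 reads in Crat hairpin replicate 1.

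Of the 12 genes of eIF3, the large scaffold on the small subunit, 1 fell and none rose, against 6.36% and 12.6% of all genes. The median log2 change of the 12 was -0.06, against 0.15 for all genes. Eif3e and Eif3i were not analysed here. Eif3a, which encodes its largest subunit, held 534 and 524 RPM in control libraries and 404 and 461 RPM in Crat hairpin libraries. The groups did not overlap. The log2 change was -0.29 ± 0.08 (SE; limma adjusted p = 0.0385), the called factor nearest to the threshold. The call did not hold without control replicate 1 (adjusted p = 0.373), control replicate 2 (0.159) or Crat hairpin replicate 1 (0.0521), nor with no filter on low values (0.0608). Eif3c, which encodes another subunit, held 385 and 395 RPM against 420 and 348 RPM, with overlap and a log2 change of -0.03. Eif3m had a log2 change of -0.34 (limma adjusted p = 0.141) and passed as lower under median-of-ratios scaling. With edgeR 6 of the 12 were called lower, against 15.9% of all genes, and with DESeq2 1 was, against 6.10% of all genes. The sum over the 12 genes was 2267 and 2246 RPM in control libraries and 2121 and 2102 RPM in Crat hairpin libraries, a difference of -6.41% (exact permutation p = 0.333).

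Eif5a encodes eIF5A, which helps ribosomes past stretches that are hard to translate and carries the rare amino acid hypusine. It held 479.7 and 502 RPM in control libraries and 323 and 347 RPM in Crat hairpin libraries, a ratio of 0.683. Both Crat hairpin libraries were far below both control libraries. The log2 change was -0.55 ± 0.08 (SE; limma adjusted p = 0.00121), and without control replicate 1 the adjusted p was 0.0645. Its relative Eif5a2 held 35.5 and 37.8 RPM against 40.4 and 30.2 RPM, with overlap. Eif6, which keeps the large subunit from joining too early, held 63.0 and 64.3 RPM against 84.0 and 91.8 RPM, a log2 change of 0.46 that did not pass (limma adjusted p = 0.0724).

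The 4 methyltransferases that modify eEF1A or eEF2 were measured at few reads and none passed with limma, DESeq2 or edgeR, 0 had an unadjusted p under 0.05, and voom called 1 lower. Eef1akmt1 held 9.21 and 8.32 RPM in control libraries and 6.22 and 4.31 RPM in Crat hairpin libraries, the last 2 resting on 2 and 7 reads. Eef1akmt2 held 18.5 and 26.5 RPM against 68.4 and 4.93 RPM, so its Crat hairpin libraries were the highest and the lowest of the 4. Its log2 change was -0.19 ± 0.87 (SE), and no direction can be read from it.

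Ratios between related genes depend little on how libraries are scaled, and 8 pairs were compared as log2 ratios of RPM + 1. In 6 of them the groups did not overlap: Eif1b to Eif1 (difference 1.23 on the log2 scale), Eif4g2 to Eif4g1 (-0.85), Eif4g3 to Eif4g1 (-0.54), Eif5a2 to Eif5a (0.48), Eif4e2 to Eif4e (0.36) and Eif4ebp2 to Eif4ebp1 (0.36). In each the exact permutation p was 0.333, the smallest that 2 against 2 libraries allow, and 0.444 after Benjamini-Hochberg adjustment over the 8 pairs. For single genes the groups did not overlap in 39.1% (higher) and 21.7% (lower) of all genes. Ratios between other pairs of genes were not counted, so 6 of 8 has no like background. The ratios of Eif4a2 to Eif4a1 and of Eif4e3 to Eif4e overlapped, with differences of 0.04 and -0.11. Plain RPM ratios, which do not depend on scaling, gave 1.29 for Eif1b to Eif1 and moved the other 7 differences by less than the spread between replicates. Leaving out each library in turn gave 0.23 to 0.74 for Eif5a2 to Eif5a, 0.18 to 0.53 for Eif4ebp2 to Eif4ebp1, 0.25 to 0.47 for Eif4e2 to Eif4e and -0.86 to 0.64 for Eif4e3 to Eif4e. In the ratios to Eif4g1 and to Eif5a the gene in the denominator is the one that passed the test.

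**Figure D3:**
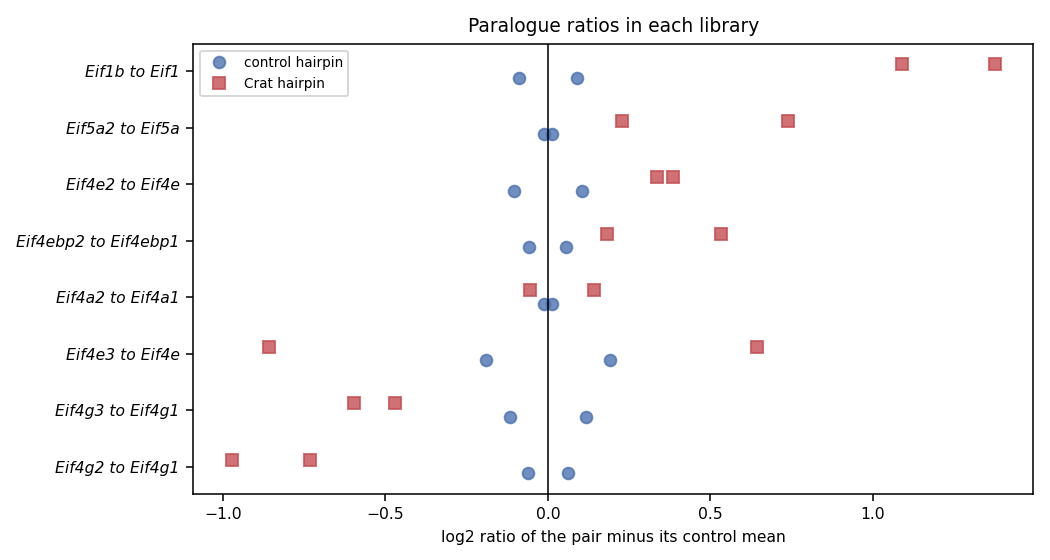
Log2 ratio of RPM + 1 between related factor genes in each of the 4 libraries, drawn as the difference from the control mean of that ratio. In 6 of the 8 pairs the Crat hairpin libraries lie apart from the control libraries, farthest for Eif1b to Eif1 at 1.23. For single genes the groups lie apart in 39.1% (higher) and 21.7% (lower) of all genes.

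Summed over the 47 genes with an eIF symbol, the level was 8242 and 8216 RPM in control libraries and 8662 and 8592 RPM in Crat hairpin libraries, a difference of 4.84% (exact permutation p = 0.333). This sign did not survive other scalings: the difference was -8.29% with median-of-ratios scaling, -9.15% with TMM scaling and -1.31% without the mitochondrially encoded genes. On the RPM scale the sum over all 56 genes differed by -5.47%, and without Eef1a1 by -0.687% with overlapping groups. With median-of-ratios scaling the sum over all 56 differed by -17.3%. The sum without Eef1a1 was not taken under other scalings, so its small difference holds for the RPM scale only.

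In the authors' deposited table, 8 of the 56 factors have an adjusted p-value under 0.05, against 10.5% of all genes. They are Eef1a1 (1.2e-14), Eef1g (6.8e-09), Eef1b2 (9.3e-09), Eif5a (3.9e-07), Eif4g1 (1.2e-06), Eef2 (0.000838), Eif3a (0.00101) and Eif4g2 (0.0303). The authors' deposited table does not pass Eif4ebp3 (0.159), Eif5 (0.243) and Eif4h (0.286). The mean RPM of Eif4g2 was 1489 in the control group and 1483 in the Crat hairpin group. With DESeq2 on the recovered reads, which does not scale by the read total, its log2 change was -0.20 (DESeq2 adjusted p = 0.0389).

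Other genes of the pathway were taken from a list of 59 regulators, of which 56 were in the table and tested. On the RPM scale 8 of them rose and 2 fell (14.3% and 3.57%, against 12.6% and 6.36% of all genes). With median-of-ratios scaling 6 were called higher and 4 lower, against 8.04% and 9.66% of all genes. The kinases and stress response genes held 4 of the higher calls among 12 genes. Eif2ak2 encodes PKR, an eIF2 kinase that double-stranded RNA activates and interferon induces. It held 59.9 and 40.9 RPM in control libraries and 239 and 286 RPM in Crat hairpin libraries, a log2 change of 2.38 ± 0.19 (SE; limma adjusted p = 1.9e-05). The groups lay far apart. The other eIF2 kinases, Eif2ak1, Eif2ak3 and Eif2ak4, had log2 changes of 0.36, 0.27 and 0.46 and did not pass.

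Ddit3, a transcription factor of the stress response downstream of eIF2 phosphorylation, held 34.1 and 28.0 RPM in control libraries and 99.5 and 137 RPM in Crat hairpin libraries (log2 change 1.89, limma adjusted p = 0.000205). Ppp1r15b, which encodes a subunit of the eIF2 phosphatase, held 32.3 and 28.8 RPM against 77.8 and 94.3 RPM (log2 change 1.46, limma adjusted p = 0.000667). Impact, which inhibits the eIF2 kinase encoded by Eif2ak4, held 52.5 and 46.2 RPM against 93.3 and 108 RPM (log2 change 1.01, limma adjusted p = 0.00265). These 3 genes were higher in both Crat hairpin libraries than in either control library. Atf4, the transcription factor that is translated when eIF2 is phosphorylated, had a log2 change of -0.11 in its message and did not pass. Eef2k, the kinase that inactivates eEF2, had 0.29 and did not pass. Without control replicate 1 the adjusted p of Impact was 0.0821.

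Of 15 genes of mTORC1 and eIF4E control 3 rose and none fell, against 12.6% and 6.36% of all genes. With median-of-ratios scaling 1 was called higher and 1 lower, against 8.04% and 9.66% of all genes. Larp1, the protein that binds the TOP motif, held 116 and 117 RPM in control libraries and 208 RPM in both Crat hairpin libraries (log2 change 0.83, limma adjusted p = 0.000656, and 0.0547 without control replicate 1). Deptor, an inhibitor within mTORC1, had a log2 change of 0.80 (limma adjusted p = 0.0360, and 0.101 under median-of-ratios scaling, with a range from 0.000313 to 0.349 over 17 alternatives). Rheb, the GTPase that activates mTORC1, had 0.56 (0.0218 on the RPM scale and 0.111 under median-of-ratios scaling, with a range from 0.000971 to 0.450). The call of Deptor was lost without control replicate 1 (0.349) and replicate 2 (0.230), and that of Rheb likewise (0.297 and 0.176). The helicase gene Ddx3x, which acts on structured leaders, held 561 and 536 RPM against 930.0 and 911 RPM (log2 change 0.75, limma adjusted p = 3.6e-05). The regulators that fell on the RPM scale were Pabpc4, a poly(A)-binding protein, and Gspt1, the release factor eRF3a. Their log2 changes were -0.41 and -0.39 (limma adjusted p = 0.00941 and 0.0395). The call of Pabpc4 was lost without control replicate 1, and that of Gspt1 without control replicate 1 or 2. With limma none of 7 genes for the modification of eIF5A and eEF2 passed, 2 of which had an unadjusted p under 0.05, and edgeR called 1 higher (Dph5, of diphthamide synthesis). None of 8 mitochondrial translation factors passed with limma, 0 had an unadjusted p under 0.05, and edgeR called 1 lower (Tufm, the mitochondrial counterpart of eEF1A).

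**Figure D4:**
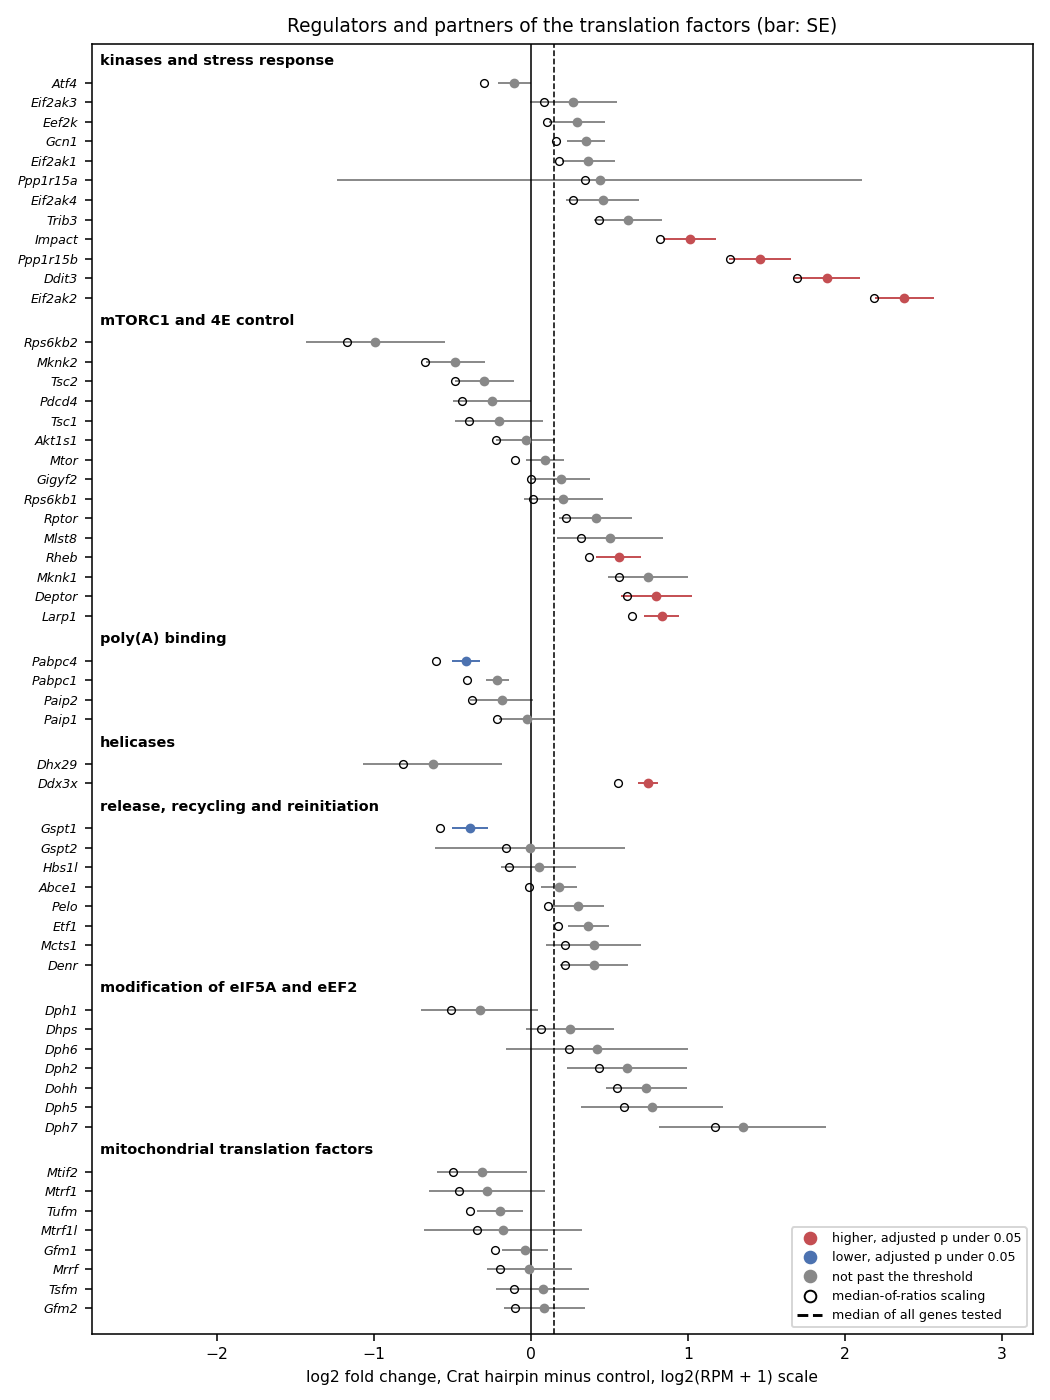
Log2 change (Crat hairpin minus control, limma on log2(RPM + 1), filled points with SE bars) of the 56 regulators in 7 sublists, with hollow points for median-of-ratios scaling and red or blue for genes past the threshold. Eif2ak2 lies highest among those past the threshold at 2.38, and 4 of the 12 kinases and stress response genes passed, all higher.

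Markers of cell types moved between the same libraries. Their calls are on the RPM scale, where 12.6% of all genes were called higher and 6.36% lower. Of 7 cardiomyocyte markers 6 fell and none rose, and their summed level was 21300 and 21856 RPM in control libraries and 9390 and 9908 RPM in Crat hairpin libraries, so the labelled cell type is present in both groups. All 4 smooth muscle markers fell (sums 4545 and 4614 against 1288 and 1189 RPM), and of 6 fibroblast markers 4 fell and 2 rose (14894 and 15613 against 12621.5 and 12627 RPM). Endothelial markers summed to 25.0 and 30.3 RPM against 49.8 and 52.4 RPM. Of 3 tested 1 was higher, Kdr, at 12.7 and 15.1 RPM against 34.2 and 37.6 RPM. Vwf was at 0 in both Crat hairpin libraries, but at only 0.380 and 0.757 RPM in control libraries, too low to be tested. Leukocyte markers summed to 22.3 and 25.0 against 24.9 and 28.3 RPM and markers of dividing cells to 79.9 and 87.8 against 106 and 91.2 RPM, with none past the threshold. Their part in the differences of the translation factors was not tested. In such bulk samples fewer cells of a type and less RNA per cell cannot be told apart.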

How the data were processed

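RNA from 4 libraries of neonatal rat ventricular cardiomyocytes, 2 per group, was sequenced on an Illumina HiSeq machine, per the labels' protocols. For the upstream steps kallisto, DESeq2 and the rat build mRatBN7.2 are listed in the submitters' processing notes, with no tool versions. Further steps by which gene values were made or filtered are not given in the sources used here. A deposited table of 14318 rows holds everything. Per the file headers its library values are TPM, but the deposited signal is RPM, not divided by gene length: 100% of the values per library are whole multiples of 1 read, within 0.02 of a read. The reads were recovered from that step. The authors also deposited p-values and adjusted p-values. The table has 14137 identifiers; 140 stand on several rows and were used once, and 1551 have no symbol.

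Genes averaging 1 RPM or more over the 4 libraries were fitted as log2(RPM + 1) in R 4.3.3 using limma 3.58.1 and its variance trend. Benjamini-Hochberg adjustment ran over all genes tested, and the threshold was 0.05. Fold changes on this scale understate the change of low genes. The test was planned for a normalised unit and was kept for RPM. The plain ratios without the added 1 were chosen after seeing the data. Alternatives were edgeR 4.0.16, DESeq2 1.42.0 and voom on the recovered reads, other scalings, pseudocounts and filters, a replicate block and each library left out. Nothing in the labels says that replicates came from separate cultures, so p-values may measure technical spread only. Reads of the 2 replicates of a group differed by more than counting error (chi-square per degree of freedom 1.47 for control, p = 4.3e-210, over 11092 genes, and 1.29 for Crat hairpin, p = 6.8e-67, over 8481 genes). Depth differed 73.7-fold, and Crat hairpin replicate 1 limits the precision of low genes. RefSeq lists a pseudogene for 31 of the 56 factors, so the assignment of their reads is uncertain, and whether counting used strand was not given in the sources used here.

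Members and lists were chosen with earlier results of these data known. Named were all factors past the threshold, up to 2 of the highest mean in roles with fewer than 2 of these, the members of the ratios, up to 6 regulators past the threshold by size, and Crat. Eef2, Eef1d, Eif5b, Eif3m, Eif2b1, Eif2b3, Eif2b4, the eIF2 subunits, Eef2k, Atf4, the other eIF2 kinases, Ppp1r15a, Ddx3x, Rheb, Dph5, Tufm, Pabpc4 and Gspt1 were named after their values were seen. Start windows came from RefSeq (GRCr8), matched by symbol for 51 of 56 factors, and the first was used for 3 factors with several.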

Additional observations from a re-analysis of the deposited data

How the results depend on the processing

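Of the alternative values of the 56 genes named with a fitted change, 789 kept their direction and their side of the threshold, 52 lost the threshold, 62 gained it and 49 changed sign. The 9 called factors kept their direction in all 17 alternatives.

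Median-of-ratios and TMM scaling gave 1042 and 1003 genes higher and 1252 and 1281 lower. Factors called lower came to 11 under both and factors called higher to 2 under TMM, regulators called lower to 4, start codon factors to 0 higher and 2 lower, eIF2B to 1 lower, eIF3 to 2 lower, and eIF4F to 1 lower and, under TMM, 1 higher. The sums moved to -17.3% and -18.1% for all factors, -8.29% and -9.15% for eIF symbols and -23.6% and -24.3% for elongation factors. Without the mitochondrially encoded genes they were -11.0%, -1.31% and -17.8%, and 0 start codon factors were higher. Without a variance trend 266 genes were higher and 79 lower, with 1 regulator higher, 0 lower, and 0 factors in either direction in any role. In the fit with the trend 19 factors had an unadjusted p under 0.05, not counted over all genes, and edgeR called 23. DESeq2 gave 748 genes higher and, for the factors, 2 higher, with start codon factors at 0 higher and eIF4F at 1 higher and 1 lower. edgeR and voom gave 2065 and 1975 genes lower, 18 factors and 6 regulators lower, start codon factors 2 higher and 3 lower, eIF3 6 lower, eIF2B 2 and 1 lower, and eIF4F and the eIF4E-binding repressors 1 lower each, and voom also 1 methyltransferase lower. A mean of at least 5 RPM or a robust prior gave 2 start codon factors higher, and no filter gave 0 of eIF3 lower.

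Sign changes in the order median-of-ratios, TMM, edgeR, DESeq2 and voom were -0.050, -0.063, -0.11, -0.079 and -0.15 for Eif4a2, -0.094, -0.11, -0.10, -0.093 and -0.12 for Eif4a1, -0.17, -0.19, -0.11, -0.13 and -0.10 for Eif4ebp2 and -0.18, -0.19, -0.21, -0.20 and -0.20 for Eif4e. Without the mitochondrially encoded genes Eif4ebp2 and Eif4e were at -0.069 and -0.071 and Eif2b4 at -0.033. Eif2b4 was at -0.14, -0.15, -0.011 and -0.073 in the first 4 of that order. Eif4e3 was at 0.13, 0.046 and 0.12 with edgeR, DESeq2 and voom, Eif2s1 at -0.021 with voom and Eef1akmt2 at 0.48 with DESeq2.

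Leaving out each library in turn gave 425 to 3632 genes higher and 176 to 2620 lower, 1 to 15 factors higher and 2 to 11 lower, and 4 to 19 regulators higher and 0 to 9 lower. By role the counts were 0 to 4 higher and 0 to 2 lower for start codon factors, 0 to 2 and 0 to 2 for eIF2B, 0 to 1 and 0 to 2 for eIF3, 1 to 5 higher for eIF4F, 0 to 1 higher for the eIF4E-binding repressors, and 0 to 1 each way for eIF5A with eIF6 and for the methyltransferases. Signs changed within -0.17 to 0.11 for Eif3c, -1.96 to 1.59 for Eef1akmt2, -0.024 to 0.012 for Eif4g2, -0.11 to 0.14 for Eif4ebp2, -0.27 to 0.14 for Eif5a2, -0.077 to 0.11 for Eif4e, -0.75 to 0.57 for Eif4e3, -0.092 to 0.20 for Eif2b4, -0.19 to 0.16 for Eif2s2, -0.019 to 0.56 for Eif2ak3 and -2.19 to 3.06 for Ppp1r15a. The fewest factors were called without control replicate 1 (1 higher, 2 lower: Eif4g1, Eef1a1 and Eef1b2), and the most without Crat hairpin replicate 2 (15 and 11). A lone library was assumed to vary like the other group. The cause of these changes was not tested.

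Deviations of replicate 1 from its group mean did not correlate between the groups (r = 0.01 over 12949 genes). Counting error in the shallow libraries could hide such a correlation, so this check cannot tell whether replicate numbers pair the samples. With the replicate block 5 factors were higher and 5 lower, with 1 gene of eIF2B higher, and 1701 genes were higher and 895 lower.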

Other observations

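Ppp1r15a, which encodes the inducible subunit of the eIF2 phosphatase, was listed at 0 in control replicate 2 and Crat hairpin replicate 1 and at 19.7 and 37.0 RPM in control replicate 1 and Crat hairpin replicate 2, so its groups cannot be compared.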
